A study of Mus musculus with 2 samples.

Results

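The SRC family kinases, the ABL kinases and BCR were examined in mouse leukemic stem cells (LSCs) of a retroviral model of chronic myeloid leukemia (CML). The set held 9 genes of the 23284 gene symbols in the files, taken by name: the SRC family members Src, Lyn, Fyn, Fgr, Lck and Yes1, the ABL kinases Abl1 and Abl2, and Bcr. All 9 were found in both libraries. The WT cells and the STAP-1 KO cells gave 1 library each, named the WT library (WT cells) and the KO library (KO cells) here, both on the C57BL/6J strain background, so there are no replicates behind any difference and no p-values are given. In both groups, LSK cells (which lack lineage markers and carry Sca-1 and c-Kit) of young adult donor mice were transduced with a retrovirus that expresses human p210 BCR-ABL together with green fluorescent protein (GFP), and were transplanted into lethally irradiated C57BL/6SJL recipients along with normal bone marrow cells of that strain. GFP+ CD45.2+ LSK cells, which are of donor origin and carry the virus, were sorted in the second week after transplantation for RNA-seq. The STAP-1 KO donors carry a germline disruption of Stap1, which encodes an adaptor protein with a pleckstrin homology domain and an SH2-like domain. The number of mice behind each library is not given in the sources used here.

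SRC family kinases are membrane-anchored tyrosine kinases with an SH3 domain, an SH2 domain and a kinase domain. The kinase CSK holds them inactive by phosphorylating a tyrosine in the tail, and phosphatases such as CD45 remove that phosphate. Lyn and Fgr are typical members of myeloid cells, Lck of T cells and Blk of B cells, while Src, Fyn and Yes1 are widely expressed. ABL1 and ABL2 are related cytoplasmic kinases that act on the cytoskeleton and, in the case of ABL1, also in the nucleus. BCR is a multidomain regulator of small GTPases. The fusion of BCR to ABL1 gives the constitutively active kinase that drives CML, and LYN is known to be activated downstream of it.

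The values are FPKM (fragments scaled to transcript length in kilobases and to the number of mapped fragments), so that levels of different genes can be set side by side. The ratio of the libraries is given as log2((KO + 0.1)/(WT + 0.1)) unless stated otherwise, where 0.1 FPKM is a pseudocount that understates the change of low genes. A gene was counted as lower or higher when its FPKM values differed 2-fold or more and neither of them was under 0.1. The steps between low values gave effective depths of 7500000 reads (WT) and 10470000 reads (KO), from which the reads behind each value were estimated on the longest coding transcript. Counting intervals (95%, exact Poisson for a level, and exact Clopper-Pearson for a ratio, given without the pseudocount) come from these estimates and cover counting error only, since PCR copies are not independent molecules. Stap1 itself had 62.0 FPKM in WT cells and 0.309 FPKM in KO cells, lower in the library labelled STAP-1 KO. Of the genes of the sort, Kit had 468 and 30.1 FPKM while the Sca-1 gene Ly6a had 285 and 106 FPKM. None of 8 genes of primitive LSK cells was at 0, and 4 were lower and 1 was higher (Slamf1), beside 22.9% and 12.3% of all genes compared. The lineage antibodies of the sort included ones against CD3e, CD11b, B220, Gr-1 and Ter119, and none against mast cells is named. The 12 mast cell and basophil markers made up 8.02% of all FPKM in WT cells and 0.922% in KO cells. The 11 granulocyte markers made up 0.140% and 0.792%, and they did not all go one way. Of them 7 were higher, among them the primary granule genes Mpo (248 and 1973 FPKM) and Elane (112 and 823 FPKM), and 3 were lower (S100a9, Ltf and Camp, with S100a9 at 104 and 30 FPKM). Whether these mRNAs came from other cells in the sorted population or from the LSK cells themselves cannot be told apart. In such bulk libraries, fewer cells of a type and less RNA per cell cannot be told apart.

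Because SRC family kinases are paralogs, the stretches in which their mRNAs are most alike were located, as they bound how far 75-base reads of one gene could be credited to another. Among the longest coding transcripts of 7 family members (the 6 genes above with Blk), the longest ungapped stretch with at most 2 mismatches ranged from 21 to 41 bases over the 21 pairs. None of the pairs reached the read length, so that no 75-base stretch of 1 of these transcripts matched another with at most 2 mismatches. The closest pair was Src and Fgr. Their stretch lies in coding sequence, in exon 10 of Src (GRCm38, chr2:157467544-157467584, plus strand) and exon 9 of Fgr (chr4:132997505-132997545, plus strand). In the sequences, written 5′ to 3′ along the mRNA, capitals mark the bases that differ within the pair.
Src: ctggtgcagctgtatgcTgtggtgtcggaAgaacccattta
Fgr: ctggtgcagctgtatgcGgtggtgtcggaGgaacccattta

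The ABL paralogs were more alike. Abl1 and Abl2 shared 62 bases with 2 mismatches across coding exons 6 and 7 of Abl1 (chr2:31790802-31792261, plus strand, intron included) and exons 7 and 8 of Abl2 (chr1:156633220-156633776, plus strand, intron included), still short of a read. Bcr and its paralog Abr shared 35 bases in coding exon 14 of both genes (chr10:75160344-75160378, plus strand, and chr11:76454542-76454576, minus strand). The virus carries a human cDNA. How many of its reads were mapped to mouse Abl1 and Bcr was not tested, and both genes are reported with this limit.
Abl1: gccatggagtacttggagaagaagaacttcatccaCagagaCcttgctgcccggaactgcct
Abl2: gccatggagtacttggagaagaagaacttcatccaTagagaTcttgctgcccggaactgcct
Bcr: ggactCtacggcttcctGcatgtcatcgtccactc
Abr: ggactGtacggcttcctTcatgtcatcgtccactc

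Lyn was by far the most abundant of the 9 mRNAs in the WT library, and Lck stood beside it in the KO library. In the WT library the order by FPKM was Lyn (78.7), Fyn (13.3), Lck (11.8), Abl1 (9.08), Src (2.37), Bcr (2.36), Fgr (1.66), Abl2 (0.707) and Yes1 (0.120). Fyn and Lck had overlapping counting intervals, and so had Src, Bcr and Fgr. In the KO library the order by FPKM was Lck (41.9), Lyn (38.4), Fyn (21.7), Abl1 (3.34), Bcr (1.60), Abl2 (0.890), Fgr (0.823), Src (0.130) and Yes1 (0.129). There, the intervals of Lck (39.1 to 44.8 FPKM) and Lyn (36.4 to 40.5 FPKM) overlapped, as did those of Abl2 and Fgr and those of Src and Yes1.

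**Figure D1:**
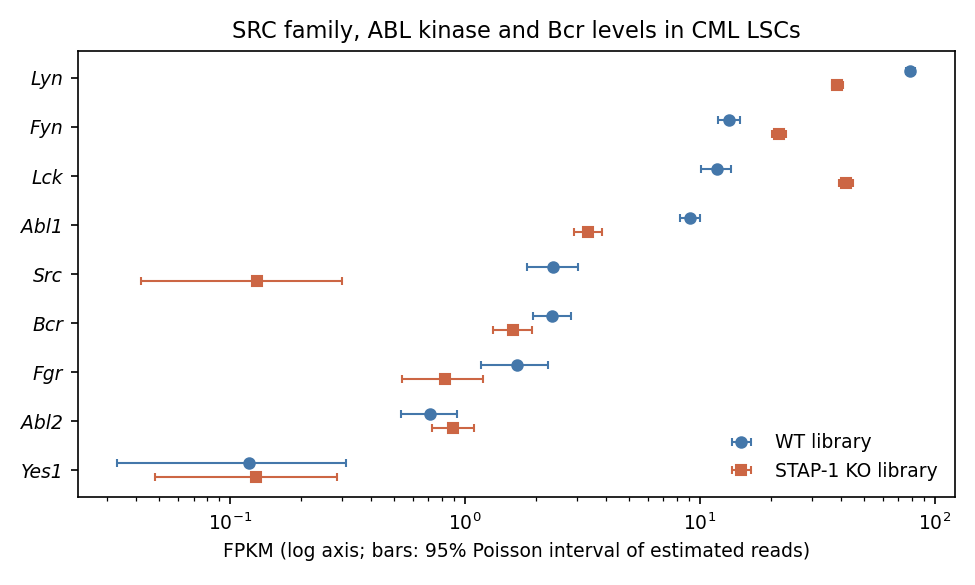
FPKM (log axis) of the 9 genes in the WT library (circles) and the KO library (squares), with 95% Poisson intervals of the estimated reads. Lyn is the highest gene in the WT library at 78.7 FPKM, Lck the highest in the KO library at 41.9 FPKM, and the widest intervals belong to Yes1 and to Src in the KO library.

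Of the 9 genes, 4 (Src, Lyn, Fgr and Abl1) were at least 2-fold lower in the KO library, against 22.9% of the 12507 genes that could be compared, and 1 (Lck) was at least 2-fold higher, against 12.3%. Among the 10108 genes with at least 1 FPKM in both libraries, where 5 of the 9 genes remained, the shares were 19.3% lower and 10.6% higher. The ratio of the libraries also varied with transcript length over all genes (Spearman's rank correlation of -0.40 across 10863 genes, which are not independent replicates). Among the 8156 genes whose longest coding transcript lay within the range of the 9 genes (2185 to 10151 bases), 26.8% were lower and 8.10% higher. The median log2 ratio of the 9 genes was -0.53, beside -0.04 for the 10974 genes whose mean over both libraries reached 1 FPKM and -0.26 for those of them within the length range. On that same basis, over the 7 of the 9 genes whose mean reached 1 FPKM, the median was -0.93, with 5 of the 7 below 0. Over all 9 genes but Abl1 and Bcr it was 0.06. Once length and GC content of the transcripts were corrected for, it was 0.21 over all 9 genes and -0.27 over the 7, so that its sign after the correction depends on whether Yes1 and Abl2 are counted. The 9 genes thus went in both directions, and they are described singly.

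**Figure D2:**
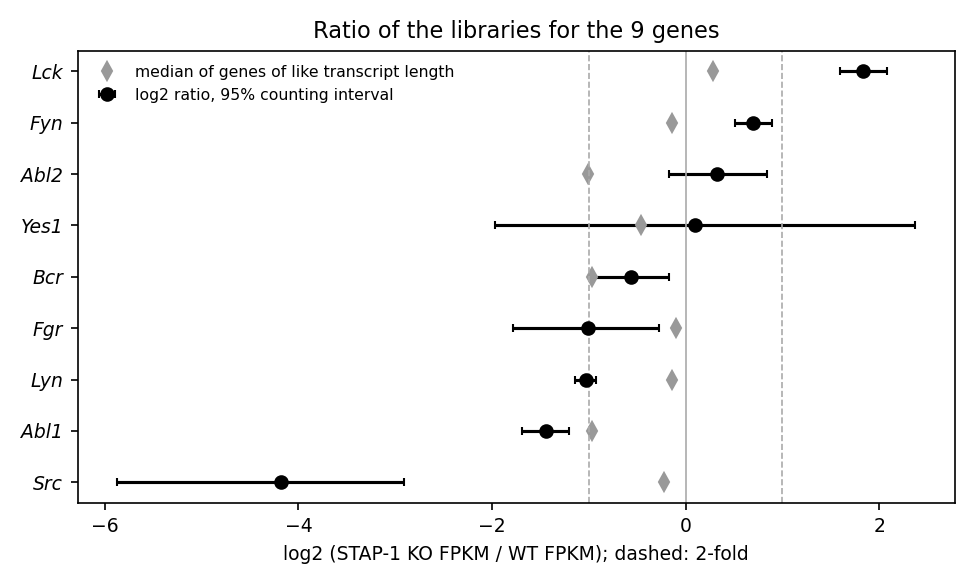
Log2 ratio of KO to WT FPKM (no pseudocount) with 95% counting intervals for the 9 genes (circles), and the median log2 ratio of the genes in the same one of 20 classes of transcript length (diamonds); dashed lines mark 2-fold. Lck lies at 1.83 and Src at -4.18, and the diamonds of Abl1, Abl2 and Bcr lie near -1.

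Lyn, on chromosome 4 (GRCm38) from 3678115 to 3813122 on the plus strand, encodes the main SRC family kinase of myeloid and mast cells, which both activates and restrains receptor signaling. It had 78.7 FPKM in WT cells (about 1918 estimated reads) and 38.4 FPKM in KO cells (about 1309 reads). It was 2.05-fold lower in the KO library, with a log2 ratio of -1.03 (counting interval from -1.14 to -0.93), so that it lay just past the cut-off and the interval included it. Genes of like transcript length had a median of -0.14, and the log2 ratio of Lyn after the correction was -1.05. Scaled by the median ratio or the upper quartile it was -0.99 and -0.98, which ended the call. Of the mast cell markers, 10 of the 11 that could be counted were also lower, beside 22.9% of all genes, with Ms4a2, which encodes the beta chain of the IgE receptor to which LYN binds, at 163 and 18 FPKM. The part of that population in the level of Lyn was not tested. The genes nearest to Lyn by the levels in both libraries were Hcst (79.3 and 37.6 FPKM) and Gpr65 (80.5 and 37.9 FPKM), at a distance of 0.033 and 0.038 on the log2 scale over 2 libraries, among 44 genes within 0.25.

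Fgr, a typical myeloid kinase of the family, was lower in the KO library too. It lies on chromosome 4 from 132974095 to 133001910 on the plus strand and was measured at 1.66 FPKM in WT cells and 0.823 FPKM in KO cells, which rest on about 39 and 27 reads. Its ratio of 2.02 was just past the cut-off, while its log2 ratio with the pseudocount was -0.93. Its counting interval reached from -1.78 to -0.27 in log2 units. After the correction its log2 ratio was -0.74 and at a pseudocount of 1 FPKM it was -0.54, each of which ended the call. The ratio of Lyn to Fgr was 47.4 in WT cells and 46.7 in KO cells, but the wide interval of Fgr leaves this likeness uncertain. Monocyte and macrophage markers did not go one way. Of 8 that could be counted, 2 were lower and 2 were higher, where 22.9% and 12.3% of all genes were, with Csf1r at 1.56 and 5.31 FPKM and Adgre1 at 30.7 and 4.34 FPKM, and their summed FPKM of 136 and 45.2 was mostly that of Cd68 (95.7 and 26.3 FPKM) and Adgre1. Their part in the level of Fgr was not tested.

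Lck, which encodes the kinase that starts T cell receptor signaling, lies on chromosome 4 from 129548344 to 129573641 on the minus strand. It was 3.55-fold higher in KO cells, with 11.8 FPKM in WT cells (about 174 reads) and 41.9 FPKM in KO cells (about 867 reads). The log2 ratio was 1.82 (counting interval from 1.60 to 2.08), and 97.4% of the 10974 genes whose mean reached 1 FPKM lay at or below it. In its class of transcript length 15.3% of the genes were higher, and its log2 ratio after the correction was 1.60. Of the defining T cell genes, Cd3d had 0.713 and 0.681 FPKM and Cd3e had 0.869 and 1.09 FPKM, while Cd3g had 1.80 and 5.04 FPKM. Of 8 T cell markers in the files, none was at 0, 2 were higher (12.3% of all genes) and 2 were lower (22.9% of all genes), and Zap70, the kinase that acts next to LCK at the receptor, had 8.59 and 0.581 FPKM. Together they summed to 183 FPKM (WT) and 96.5 FPKM (KO), mostly that of Lat (169 and 86.7 FPKM), an adaptor that mast cells and megakaryocytes share. The part of T cells in the level of Lck was not tested. The genes with the most similar levels were Poc1a (12.1 and 41.4 FPKM) and Adssl1 (11.6 and 44.4 FPKM), at a distance of 0.040 and 0.085, among 11 genes within 0.25.

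Fyn, a widely expressed kinase with roles at lymphocyte and mast cell receptors, lies on chromosome 10 from 39368855 to 39565381 on the plus strand. It had 13.3 FPKM in WT cells and 21.7 FPKM in KO cells, from about 335 and 761 reads. The ratio of 1.62 was below the cut-off, with a log2 ratio of 0.70 and a counting interval from 0.51 to 0.89. Genes of like length had a median of -0.14, so the difference was of the opposite sign to theirs. The nearest genes by level were Metap1d (13.3 and 21.6 FPKM) and 1110031I02Rik (13.3 and 21.7 FPKM), and 119 genes lay within 0.25, so that many genes had this pattern. Within the libraries, Lyn had 5.90 times the level of Fyn in WT cells and 1.77 times in KO cells. Lck went from 0.885 to 1.93 times the level of Fyn.

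Src, the founding member of the family, lies on chromosome 2 from 157418444 to 157471862 on the plus strand. It was low in WT cells and near the floor in KO cells, with 2.37 FPKM (about 66 reads) and 0.130 FPKM (about 5 reads). Without the pseudocount its log2 ratio was -4.18, an 18.2-fold difference (counting interval from -5.87 to -2.91), and with it the log2 ratio was -3.42. At a pseudocount of 1 FPKM it was -1.58, so the size of the fold at these low levels depends on the pseudocount. The KO value also rests on few reads, which the counting interval takes in. A log2 ratio as low was found in 2.2% of the genes whose mean reached 1 FPKM. Genes of its transcript length had a median of -0.22, and its log2 ratio after the correction was -2.90. Yes1, the closest relative of Src and Fyn in structure and on chromosome 5 from 32611171 to 32687057, had 0.120 and 0.129 FPKM. These values rest on about 4 and 6 reads, and the interval from -1.97 to 2.37 means that no difference was detectable at this depth.

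The makeup of SRC family mRNA differed between the libraries more than its sum. Over the 7 genes the summed FPKM was 108 in WT cells and 103 in KO cells. Lyn made up 72.7% of the sum in WT cells and 37.3% in KO cells, while Lck made up 10.9% and 40.6% and Fyn 12.3% and 21%. Src made up 2.19% and 0.127%, and Fgr 1.53% and 0.799%. The ratio of Lyn to Lck was 6.67 in WT cells and 0.917 in KO cells, a 7.28-fold difference. Such ratios within a library do not depend on how the libraries were scaled against each other. They were not corrected for transcript length, and the length class of Lck had a median log2 ratio of 0.28, that of Lyn and Fyn -0.14.

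**Figure D3:**
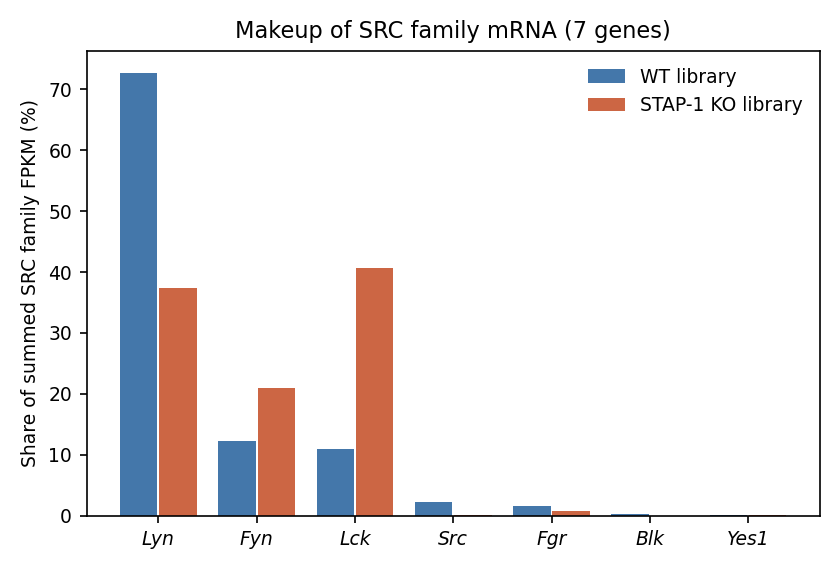
Share of the summed FPKM of 7 SRC family genes (percent, bars from 0) in the WT library and the KO library, 1 library each. Lyn has 72.7% and 37.3% of the sum, and Lck has 10.9% and 40.6%.

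Of the remaining relatives, Blk was at 0.235 FPKM in WT cells (about 4 reads) and was listed at 0 in KO cells, where 3 reads would give 0.135 FPKM. The B cell genes Pax5 and Ebf1 were listed at 0 in both libraries, and Cd79b had 3.10 and 17.8 FPKM. Of 7 B cell markers 3 could be counted, of which 2 were higher (Cd79b and Igll1, the latter at 0.202 and 0.433 FPKM) and 0 lower, beside 12.3% and 22.9% of all genes, while Ms4a1 had 0.505 and 0.0517 FPKM. Their part in the level of Blk was not tested. The related epithelial kinases were at or near 0. Ptk6 was listed at 0 in both libraries, Frk at 0 and 0.0215 FPKM, and Srms at 0 and 0.123 FPKM.

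Abl1 and Abl2 differed in the direction of their ratios. Abl1, on chromosome 2 from 31688376 to 31804227 on the plus strand, was measured at 9.08 FPKM in WT cells (about 417 reads) and 3.34 FPKM in KO cells (about 214 reads). It was 2.72-fold lower, with a log2 ratio of -1.42 (counting interval from -1.69 to -1.20). Its longest coding transcript has 6327 bases, and genes of that length class had a median of -0.97, with 50.1% of them past the cut-off downwards. After the correction its log2 ratio was -0.27. The uncorrected log2 ratio of Abl1 lay nearer to the median of its length class than to 0, but its counting interval did not reach that median. The part of transcript length in the ratio of Abl1 was not tested. Abl2, on chromosome 1 from 156558786 to 156649568 on the plus strand, was measured at 0.707 and 0.890 FPKM. Its log2 ratio of 0.30 had a counting interval from -0.17 to 0.84 on about 53 and 93 reads. On the shorter coding transcript of 3549 bases the same values would rest on about 18 and 31 reads. The long Abl2 transcript falls in a class with a median of -1.01, and after the correction its log2 ratio was 1.26, past 2-fold. The shorter transcript would fall in the class of Lyn and Fyn, with a median of -0.14, and the correction was not run on it. The correction was fitted on genes whose mean reached 1 FPKM, which that of Abl2 did not. The ratio of Abl1 to Abl2 was 12.9 in WT cells and 3.75 in KO cells, a 3.43-fold difference.

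Bcr, on chromosome 10 from 75060592 to 75184921 on the plus strand, was measured at 2.36 FPKM in WT cells (about 117 reads) and 1.60 FPKM in KO cells (about 111 reads). The log2 ratio was -0.53 (counting interval from -0.95 to -0.17), below the cut-off, and became 0.71 after the correction. Its paralog Abr, on chromosome 11, had 19.8 and 4.75 FPKM and was 4.15-fold lower, with a log2 ratio of -2.03 that became -1.32. In its length class 36.2% of the genes were lower. The ratio of Abl1 to Bcr was 3.85 in WT cells and 2.09 in KO cells. Since the transcript of the virus would give BCR and ABL1 sequence together, the values of Abl1 and Bcr are those of the mouse genes with an unknown part from the virus. Exons of Lyn, Yes1, Abl1 and Abr overlap those of genes annotated on the other strand, and strand was not stated to be used in the counting. An exon of Lck overlaps the microRNA gene Mir8119 on the same strand.

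**Figure D4:**
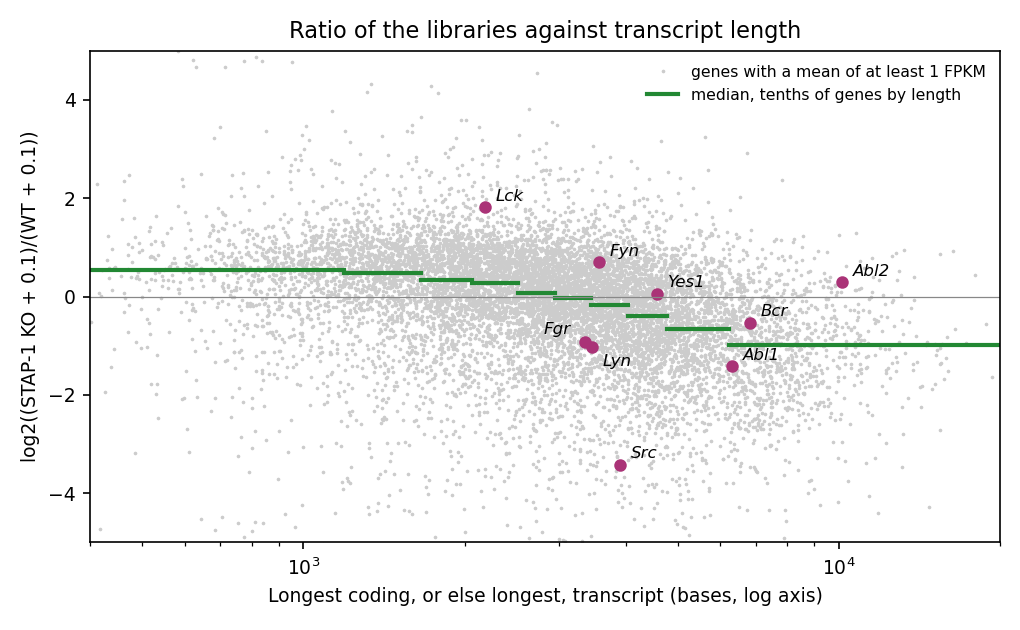
Log2 ratio of the libraries against the length of the longest coding transcript (log axis, bases) for genes whose mean reached 1 FPKM (grey), with the medians of 10 equal groups of the genes by length (green bars) and the 9 genes (purple); genes outside the axes are not drawn. The medians run from 0.54 for the shortest genes to -0.99 for the longest, where Abl1 lies below the bar and Bcr and Abl2 above it.

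Of 18 regulators of these kinases, 17 could be counted, and 4 were lower and 1 was higher. The count of lower genes is close to what the 22.9% of all genes would give, and 12.3% of all genes were higher. The median log2 ratio over the 17 genes whose mean reached 1 FPKM was -0.53, and -0.03 after the correction. Csk, the kinase that shuts off the family, had 46.3 and 32.4 FPKM, and its relative Matk had 52.3 and 27.1 FPKM, both below 2-fold. Ptprc, which encodes the activating phosphatase CD45, was 2.81-fold lower, with 107 FPKM in WT cells and 38.2 FPKM in KO cells. The receptor phosphatase gene Ptprj was lower as well (4.21 and 1.39 FPKM), but its log2 ratio of -1.53 became -0.60 after the correction, which ended the call, and 50.1% of the genes in its length class were lower. Also lower was Ptpn12 (23.9 and 10.6 FPKM), whose product acts on ABL and focal adhesion substrates. Cblb, which encodes a ubiquitin ligase that limits tyrosine kinase signaling, had 6.98 and 1.69 FPKM. After the correction the log2 ratios of Ptprc, Ptpn12 and Cblb were -1.10, -1.26 and -1.12. Ptpn22, which encodes a phosphatase of the LCK activation loop, was the 1 gene that was higher, with 3.86 and 10.7 FPKM, a 2.78-fold difference and a corrected log2 ratio of 1.20. Ptpn6 and Ptpn11, which encode SHP-1 and SHP-2, had 148 and 168 FPKM and 6.41 and 5.81 FPKM.

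Among the adaptors, substrates and partners of BCR-ABL, ABL and SRC family kinases, 12 of the 31 genes that could be counted were lower and 2 were higher, beside the same 22.9% and 12.3% of all genes. The median log2 ratio over the 29 genes whose mean reached 1 FPKM was -0.72, and -0.62 after the correction, and 25 of the 29 were below 0. The largest difference among the counted genes was that of Gab2, the scaffold that links BCR-ABL through GRB2 to PI3K and RAS signaling, with 52.3 FPKM in WT cells and 3.66 FPKM in KO cells (14.3-fold lower). Enah, an actin regulator and ABL substrate, had 34.0 and 3.18 FPKM, the docking protein gene Nedd9 had 48.0 and 7.52 FPKM, and Dok3, an inhibitory adaptor, had 59.9 and 12.1 FPKM. Their log2 ratios after the correction were -3.21, -2.57, -2.10 and -2.41, in the same order. Skap2, a SRC family substrate in myeloid cells, was higher (42.5 and 88.5 FPKM), and so was Rin1, an activator of ABL kinases, at 0.168 and 0.361 FPKM with a counting interval from -0.32 to 3. The corrected log2 ratio of Skap2 was 0.97, which ended the call. That of Rin1 was 1.52, but its values rest on about 5 and 16 reads, and its log2 ratio was 0.78 with the pseudocount of 0.1 FPKM and 0.22 with 1 FPKM, both below 2-fold. The direct BCR-ABL partners Grb2 (86.0 and 52.3 FPKM) and Crkl (19.3 and 13 FPKM), named after their values were seen, were below the cut-off. Bcar1 was listed at 0 in the KO library and was not counted. Of the mast cell markers, 10 of the 11 that could be counted were lower too, beside 22.9% of all genes. The part of mast cells in the differences of the adaptors and substrates was not tested.

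**Figure D5:**
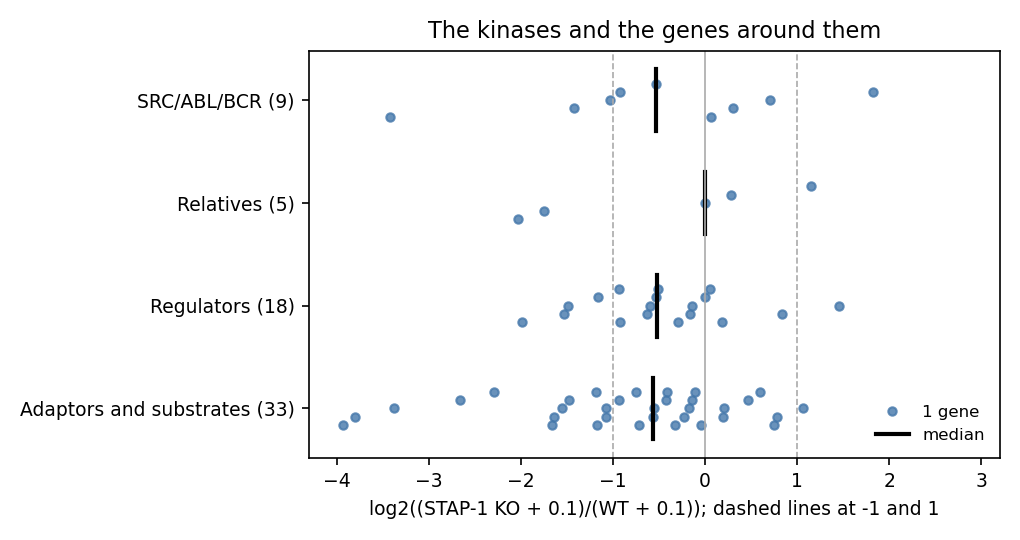
Log2 ratios of the libraries, log2((KO + 0.1)/(WT + 0.1)), for the 9 genes, 5 relatives, 18 regulators and 33 adaptors and substrates; each point is a gene, black bars are medians over all genes of a list, and dashed lines lie at -1 and 1. The medians of the 9 genes, the regulators and the adaptors and substrates are below 0, and the lowest point is that of the substrate gene Bcar1 at -3.93.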

How the data were processed

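RNA-seq libraries were 1 of WT and 1 of STAP-1 KO LSCs. The authors made cDNA with a low-input SMART-Seq kit, sequenced single reads of 75 bases and mapped them to mm10 with TopHat (version 2.0.13) and Bowtie2 (version 2.2.3). The deposited FPKM values per gene symbol came from Cuffnorm (Cufflinks version 2.2.1). The annotation and the library scaling are not given in the sources used here.

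Calculations used Python (version 3.11.15), scipy (version 1.17.1), pandas (version 2.3.3) and numpy (version 2.4.6), and plots used matplotlib (version 3.10.9). The cut-off was 2-fold with at least 0.1 FPKM in both libraries. Of the symbols, 20911 matched GENCODE M21 (GRCm38) as written, 1914 through an older symbol and 459 did not match. Effective depth was fitted to values below 0.3 FPKM of genes with 1 transcript, where 47.6% of 315 WT values and 49.1% of 385 KO values were whole reads to within 0.01. These fits took 212 and 208 bases off each transcript. The correction subtracts median log2 ratios in 20 classes of transcript length and then 20 of GC content. The steps were checked on simulated data.

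The 9 genes and all lists were chosen with earlier results of these data known. Named genes were the 9 genes, relatives, Stap1, and, of the lists of regulators and of substrates, up to 4 genes in each direction past the cut-off ranked by the size of their log2 ratio at a pseudocount of 1 FPKM. Marker genes, Csk, Matk, Ptpn6, Ptpn11, Grb2, Crkl and Bcar1 were added after their values were seen. With 1 library per genotype no test was run. Some genes of the fixed lists are not reported here.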

Additional observations from a re-analysis of the deposited data

How the results depend on the processing

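With a floor of 1 FPKM in both libraries, 2 of the 9 genes were at least 2-fold lower (Lyn and Abl1), since Src and Fgr could not be counted. Scaling by the median ratio or by the upper quartile left 2 (Src and Abl1), because Lyn and Fgr lay within 0.06 log2 units of the cut-off. Correcting for length and GC content left 2 (Src and Lyn) and raised the genes that were higher to 2 (Lck and Abl2). The call of Abl2 rests on its longest coding transcript, and its mean was below the 1 FPKM of the genes used to fit the correction. A pseudocount of 1 FPKM left 3 lower (Src, Lyn and Abl1). A 4-fold cut-off left 1 gene lower (Src) and 0 higher, and a 1.5-fold cut-off gave 2 higher (Lck and Fyn). With the floor of 1 FPKM, 19.3% of all genes compared were lower and 10.6% higher. Such shares are not given for the other settings, so their counts cannot be set against all genes. The median log2 ratio of -0.53 became 0.06 without Abl1 and Bcr and 0.21 after the correction. Over the 7 genes whose mean reached 1 FPKM it was -0.93, and -0.27 after the correction. Of 54 log2 ratios of single genes under the pseudocounts, scalings and the correction, 49 stayed within the counting interval and none of those past 2-fold changed sign. The log2 ratio of Lck stayed between 1.60 and 1.88. Of the erythroid markers 3 of 7 were lower and 0 higher, and of the megakaryocyte markers 3 of 8 were lower and 1 was higher (Ppbp), beside 22.9% lower and 12.3% higher among all genes. No paired analysis was possible because there is 1 library per genotype, and for that reason no library could be left out. Depth limits Yes1, Src, Fgr and Blk.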
